A study of Homo sapiens with 4 samples.

Results

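The enzymes of glycolysis were examined in NCI-H520 cells, an established lung squamous cell carcinoma line, after exposure to Hx1R8. The group holds 10 genes taken by symbol from the deposited gene count table, in pathway order: HK2, GPI, PFKP, ALDOA, GAPDH, PGK1, PGAM1, ENO1, PKM and LDHA. All 10 were found among the 28277 genes of the table. They were listed as enzymes of the pathway, with earlier results of these data known, and an earlier look had singled out PGAM1. RNA sequencing gave 2 libraries of cells given ultrapure water (Vehicle) and 2 libraries of cells given 10 µM Hx1R8 for 12 h. The labels call the cells WT in both groups. The sources used here do not give the composition of Hx1R8. The series title concerns SOX2 self-association and resistance to chemotherapy. The labels do not say whether the 2 libraries of a group were grown as separate cultures, so every p-value rests on a spread between libraries that may be technical.

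Glycolysis turns glucose into pyruvate in the cytosol, and lactate dehydrogenase then turns pyruvate into lactate. Many tumour cells run this route at a high rate even when oxygen is present, and the transcription factors HIF1 and MYC are known to raise the transcription of most of its enzymes. Phosphoglycerate mutase 1, the product of PGAM1, moves a phosphate group within phosphoglycerate and stands between phosphoglycerate kinase and enolase in the pathway.

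Among the enzymes, ALDOA and PGAM1 had the largest shares of transcript sequence found in other genes. Such sharing bears on how their reads could be counted, and a stretch of PGAM1 is shown for that reason. PGAM4 is a retrogene of PGAM1. Over 762 aligned coding bases of GENCODE 29 transcripts on GRCh38, without the stop codon, PGAM1 and PGAM4 differed at 13 bases (98.3% identity), and the longest stretch without a difference was 269 bases. Coding bases 559 to 648, counted from the first base of the start codon, hold 4 of the 13 differences, which are written in capitals here.
PGAM1: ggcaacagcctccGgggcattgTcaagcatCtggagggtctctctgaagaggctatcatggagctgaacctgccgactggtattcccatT
PGAM4: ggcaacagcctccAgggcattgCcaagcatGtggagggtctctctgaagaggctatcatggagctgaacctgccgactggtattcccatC
A coding read that covers none of the 13 positions could have come from either gene. Of all 50-base windows of the PGAM1 transcript, 43.1% also occurred in the transcript of another annotated gene, and of all 100-base windows 38.5%. The sharing genes were led by AC012085.1 and AC078819.1, followed by PGAM4. The deposited table gave PGAM4 15 and 14 reads in Vehicle and 12 and 18 in Hx1R8, against 5497 and 5525 reads for PGAM1 in Vehicle and 4739 and 6101 in Hx1R8. The sources used here do not say how reads matching several places were counted, so the level of PGAM1 carries that uncertainty, and whether it touches the comparison between groups was not tested.

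ALDOA, which encodes the muscle-type aldolase that splits its sugar bisphosphate substrate, overlaps a neighbouring gene. Of its 3939 exon bases in the table, 1406 also belong to the same-strand gene LOC112694756. In GENCODE 29, 87.7% of the 100-base windows of the ALDOA transcript occurred in another gene, led by AC093512.2. The table listed 129 and 132 reads for ALDOA in Vehicle and 143 and 187 in Hx1R8, and 30, 22, 33 and 37 reads for LOC112694756 in the same order. Both rows were thus nearly empty beside the other enzymes. Whether reads on the shared bases were left out of both was not tested, and the ALDOA values below are those listed. The other 9 enzymes shared no exon base with another listed gene. The share of 100-base windows found in another gene was 8.42% for GPI and 2.73% for HK2, 0.861% for PFKP and 0.561% for LDHA. It was 0 for GAPDH, PGK1, ENO1 and PKM, although GENCODE 29 names 62 pseudogenes of GAPDH.

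Total counts lay between 17259403 and 20920857 per library. The table held SOX2 at 8904 to 10426 reads per library, and PERP, another gene of squamous epithelium, at 10739 to 13668 reads. The basal keratin KRT14 and DSG3, a desmosomal cadherin, had 0 reads in all 4 libraries, KRT17 at most 1, and TP63 7 to 15, whereas the keratin KRT6A had 307 to 358 and the desmosomal cadherin DSC3 106 to 158. Defining markers of squamous epithelium thus ranged from abundant to absent in the labelled cells. DSC3 (log2 fold change 0.31, SE 0.14, unadjusted p = 0.028) and KRT6A (-0.18, SE 0.09, unadjusted p = 0.045) differed between the groups without overlap, each at an edgeR adjusted p of 0.9999, and their part in the results below was not tested. Among markers of other cells, the leukocyte gene PTPRC, the endothelial gene PECAM1 and the alveolar gene SFTPC were at 0 in all libraries. Others were detected: the collagen gene COL1A1 had 126 to 171 reads, the neuroendocrine gene SYP 103 to 152, and the myeloid genes CD14 and CD68 13 to 27 and 13 to 20. The whole list of 18 genes summed to 16.8 to 20.4 TPM per library.

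Measured per length, GAPDH was the most abundant of the 10 transcripts, and PFKP was the scarcest of the 9 other than ALDOA. TPM, used for all levels between genes, divides reads by exon length and scales each library to the same sum. GAPDH, which oxidises glyceraldehyde phosphate, stood at 7554 ± 425 TPM in Vehicle and 7458 ± 38.5 TPM in Hx1R8 (SD, n = 2 each) and held rank 3 among all genes. Enolase ENO1 followed at 2113 ± 110 TPM in Vehicle, pyruvate kinase PKM at 1546 ± 80.9 TPM and LDHA at 1067 ± 17.6 TPM (SD, n = 2). PGAM1 came next in Vehicle at 474 ± 4.07 TPM, above the kinase PGK1 at 426 ± 20.6 TPM and the isomerase GPI at 426 ± 27.7 TPM (SD, n = 2). PGK1 and GPI did not differ beyond their spread. In Hx1R8, PGAM1 at 427 ± 20.5 TPM overlapped PGK1 at 423 ± 2.58 TPM and lay near GPI at 417 ± 5.49 TPM (SD, n = 2). The enzymes of the 2 kinase steps at the head of the pathway were the lowest, with hexokinase HK2 at 105 ± 3.78 TPM and phosphofructokinase PFKP at 55.0 ± 1.77 TPM in Vehicle (SD, n = 2). PKM is a single row, so its spliced forms cannot be told apart.

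Hx1R8 was followed by no change past the threshold in any of the 10 enzymes, and for 9 of them the 95% interval of the fold lay within 1.2-fold of no change. Across the table edgeR's quasi-likelihood test called 3 of 14482 tested genes at a Benjamini-Hochberg adjusted p under 0.05, which is 0.0207%. It called 0 of the 10 enzymes, and so did DESeq2, which called 0.0138% of all genes, and limma-voom, which called 0.0207%. At an unadjusted p under 0.05 there was 1 enzyme, PGAM1, beside 491 genes in all. The median log2 fold change of the 10 enzymes was -0.02, against -0.0018 for all tested genes, with 7 enzymes below 0 and 3 above. Intervals within 1.2-fold were found for 57.6% of all tested genes and for 99.5% of those whose mean log2 CPM was 6 or more, a level that all the enzymes but ALDOA exceeded.

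**Figure D1:**
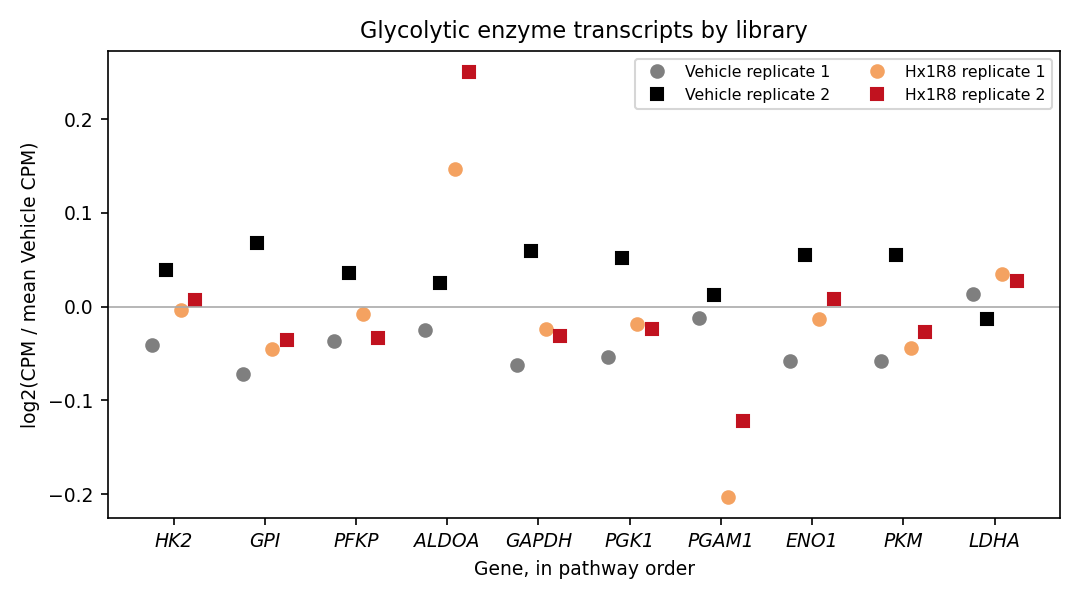
Library-scaled reads (CPM) of each enzyme in each library, as log2 of the ratio to the mean of the 2 Vehicle libraries, with genes on the x axis in pathway order. Both Hx1R8 libraries of PGAM1 lie below both Vehicle libraries, and for 7 other enzymes both Hx1R8 libraries lie between Vehicle replicate 1 (low) and Vehicle replicate 2 (high).

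Beginning with the preparatory steps, the enzymes that trap and prime glucose had nearly the same level with and without Hx1R8. HK2, which phosphorylates glucose, was at 192 and 203 CPM (reads scaled to library size with TMM factors) in Vehicle and 197 and 198 CPM in Hx1R8. GPI, which converts glucose phosphate to fructose phosphate, was at 734 and 808 CPM in Vehicle against 747 and 752 CPM in Hx1R8. PFKP, the platelet-type phosphofructokinase that commits sugar to glycolysis, was at 65.6 and 69.0 CPM in Vehicle against 66.9 and 65.8 CPM in Hx1R8. In each of these 3 genes both Hx1R8 libraries lay between the Vehicle libraries. The log2 fold changes were 0.0019 (SE 0.05) for HK2, -0.04 (SE 0.05) for GPI and -0.02 (SE 0.06) for PFKP. ALDOA was listed at 7.37 and 7.63 CPM in Vehicle against 8.31 and 8.92 CPM in Hx1R8. Both Hx1R8 libraries were above both Vehicle libraries, as for 14.7% of all tested genes. The log2 fold change of ALDOA was 0.20 (SE 0.13, edgeR adjusted p = 0.9999), and its 95% interval, from 0.963-fold to 1.38-fold, was the widest of the 10.

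In the energy-yielding steps, GAPDH, PGK1, ENO1 and PKM shared their lowest and their highest library, both of them controls. GAPDH was at 4073 and 4431 CPM in Vehicle against 4181 and 4162 CPM in Hx1R8. PGK1, which makes ATP from bisphosphoglycerate, was at 643 and 692 CPM in Vehicle against 659 and 657 CPM in Hx1R8. ENO1, which forms phosphoenolpyruvate, was at 2087 and 2257 CPM in Vehicle against 2151 and 2185 CPM in Hx1R8. In these genes Vehicle replicate 1 was the lowest library and Vehicle replicate 2 the highest, with the Hx1R8 libraries between them in either order. PKM, which carries out the later ATP-yielding step, was at 1743 and 1885 CPM in Vehicle against 1759 and 1781 CPM in Hx1R8. The log2 fold changes were -0.03 (SE 0.05) for GAPDH, -0.02 (SE 0.05) for PGK1, -0.0025 (SE 0.05) for ENO1 and -0.04 (SE 0.05) for PKM. LDHA, the subunit of lactate dehydrogenase that favours lactate formation, was at 967 and 949 CPM in Vehicle against 981 and 976 CPM in Hx1R8. Both Hx1R8 libraries of LDHA were above both Vehicle libraries, with a log2 fold change of 0.03 (SE 0.05) and a 95% interval from 0.959-fold to 1.09-fold.

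PGAM1 was the lowest of the 10 by fold change, and its difference did not pass the threshold. PGAM1 lies on chromosome 10 (hg38, 97426191 to 97433444, plus strand) with 2054 exon bases. It was at 314 and 319 CPM in Vehicle against 275 and 291 CPM in Hx1R8. Both Hx1R8 libraries were below both Vehicle libraries, as for 15.2% of all tested genes. The log2 fold change was -0.16 (SE 0.05), a fold of 0.894 with a 95% interval from 0.838 to 0.955. By edgeR's quasi-likelihood test the unadjusted p was 0.0014, rank 22 of 14482 genes, and the adjusted p was 0.941. As PGAM1 had been singled out from these same libraries beforehand, its unadjusted p and rank are descriptions only. Counted per 1000 reads of ENO1, the next enzyme in the pathway, PGAM1 had 151 and 142 reads in Vehicle and 128 and 133 in Hx1R8. Per 1000 reads of PGK1, the enzyme before it, PGAM1 had 488 and 462 reads in Vehicle and 418 and 443 in Hx1R8. Per 1000 GAPDH reads there were 77.1 and 72.1 in Vehicle and 65.8 and 70.0 in Hx1R8. Within each of these ratios the groups did not overlap. For GAPDH and PGK1, however, the gap between Vehicle replicate 2 and Hx1R8 replicate 2 was smaller than the difference within either group. For ENO1 that gap was smaller than the difference within Vehicle.

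The log2 fold change of PGAM1 moved little with either control library left out, whereas the sign of GAPDH depended on which was left out. With 1 control left, the spread comes from the Hx1R8 libraries alone, so passing the threshold there is no call on equal terms with the reported fit. Without Vehicle replicate 1, PGAM1 passed at a log2 fold change of -0.17 (edgeR adjusted p = 0.0046), and so did GAPDH at -0.09 (adjusted p = 0.039). In that setting 79 of 14786 genes, or 0.534%, were called, and Vehicle replicate 2 was the only control. Without Vehicle replicate 2, PGAM1 was at -0.15 (adjusted p = 0.067) and GAPDH turned to 0.04 (adjusted p = 0.897). PGAM1 stayed below 0 under all 12 alternatives, from -0.20 to -0.12. With all libraries kept, its adjusted p ran from 0.902 (limma-voom) to 0.9999 (edgeR with upper-quartile factors). The groups of PGAM1 did not overlap in CPM, so leaving out 1 library could hardly reverse its sign. The other alternatives refitted the same libraries from which PGAM1 had been singled out. Its steady sign is therefore no independent test of the difference.

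**Figure D2:**
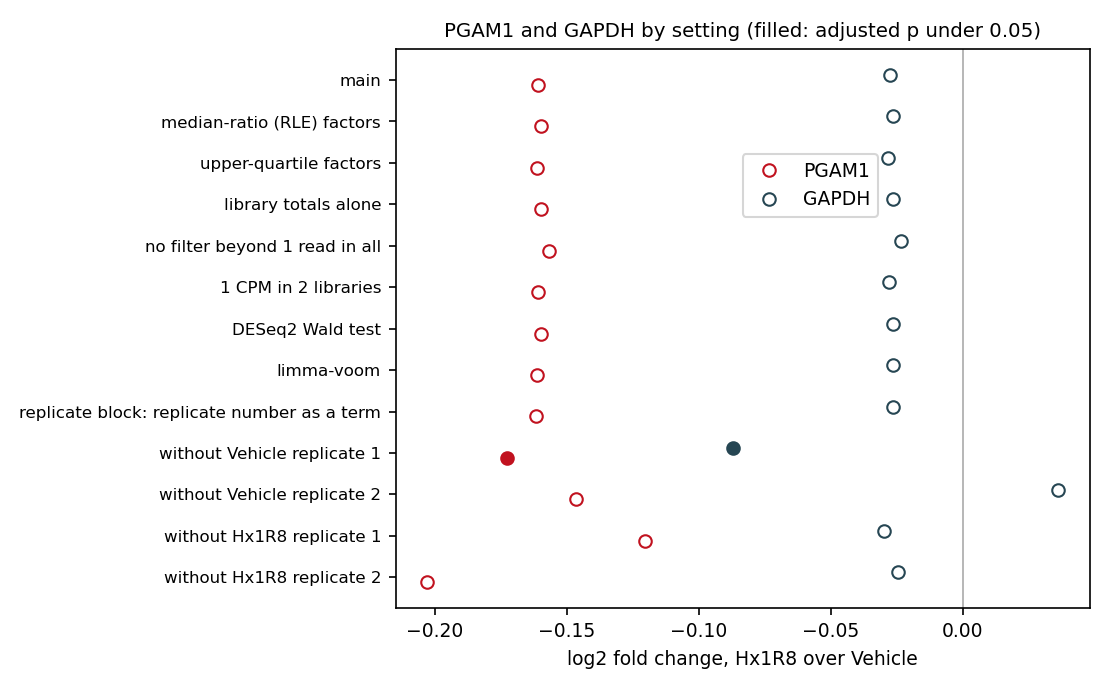
Log2 fold change (x axis) of PGAM1 and GAPDH under the reported fit and each of 12 alternatives (y axis), with filled points where the adjusted p was under 0.05. PGAM1 stays between -0.20 and -0.12, whereas GAPDH moves from -0.09 without Vehicle replicate 1 to 0.04 without Vehicle replicate 2. As the groups of PGAM1 did not overlap in CPM, its sign could hardly change, and the contrast with GAPDH is a description only.

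The 2 control libraries differed from each other in these enzymes by more than the 2 Hx1R8 libraries did. Vehicle replicate 2 was above Vehicle replicate 1 in 8 of the 9 enzymes without ALDOA, LDHA being the exception. It was the highest of the 4 libraries in those 8, against 29.5% of all tested genes. Related lists had high shares too: 71.4% of 7 tested pentose phosphate genes, 60% of 5 serine branch genes and 58.3% of the 12 tested isoenzymes and TPI1. In each of the other lists the share was 40% or less. Both Hx1R8 libraries lay between the 2 Vehicle libraries in 7 of the 9, against 24.5% of all tested genes. The root mean square log2 difference over the 9 enzymes was 0.097 between the Vehicle libraries and 0.030 between the Hx1R8 libraries. Over the 6403 genes whose mean log2 CPM was at least 5 it was 0.097 and 0.070. Pairs of a Vehicle and an Hx1R8 library gave 0.070 to 0.088 over these genes, so the controls differed most from each other. Over the 9 enzymes such pairs gave 0.051 to 0.101. The log2 difference of Vehicle replicate 2 from replicate 1 was 0.14 for GPI, 0.12 for GAPDH and 0.11 for both ENO1 and PKM. It was 0.02 for PGAM1 and -0.03 for LDHA. Together the 9 enzymes took 1.08% and 1.16% of all reads in Vehicle and 1.10% and 1.11% in Hx1R8, so both Hx1R8 values fell within the range of the controls.

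Sister isoenzymes of these steps, listed together with TPI1, had 0 of 12 tested genes past the threshold, none of them with an unadjusted p under 0.05. Over all tested genes these shares were 0.0207% and 3.39%. Their log2 fold changes ran from -0.18 to 0.09 with a median of -0.02, and 11 further listed genes had too few reads to test. TPI1, the triose phosphate isomerase, which acts between aldolase and GAPDH and is no isoenzyme of the 10, was the most abundant of this list. It was at 659 ± 30.0 CPM in Vehicle against 644 ± 4.27 CPM in Hx1R8 (SD, n = 2 each). LDHB, the lactate dehydrogenase subunit of oxidative tissues, was at 146 ± 9.52 and 149 ± 5.48 CPM. The smallest unadjusted p belonged to GAPDHS, the sperm-type GAPDH, at 13.6 ± 0.031 CPM in Vehicle against 12.0 ± 0.032 CPM in Hx1R8 (log2 -0.18, SE 0.10). Both Hx1R8 libraries of GAPDHS were below both Vehicle libraries. ENO2, the neuronal enolase, was at -0.05 (SE 0.06) and ENO3, the muscle enolase, at 0.09 (SE 0.10). ALDOC, the brain-type aldolase, was at -0.10 (SE 0.11).

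**Figure D3:**
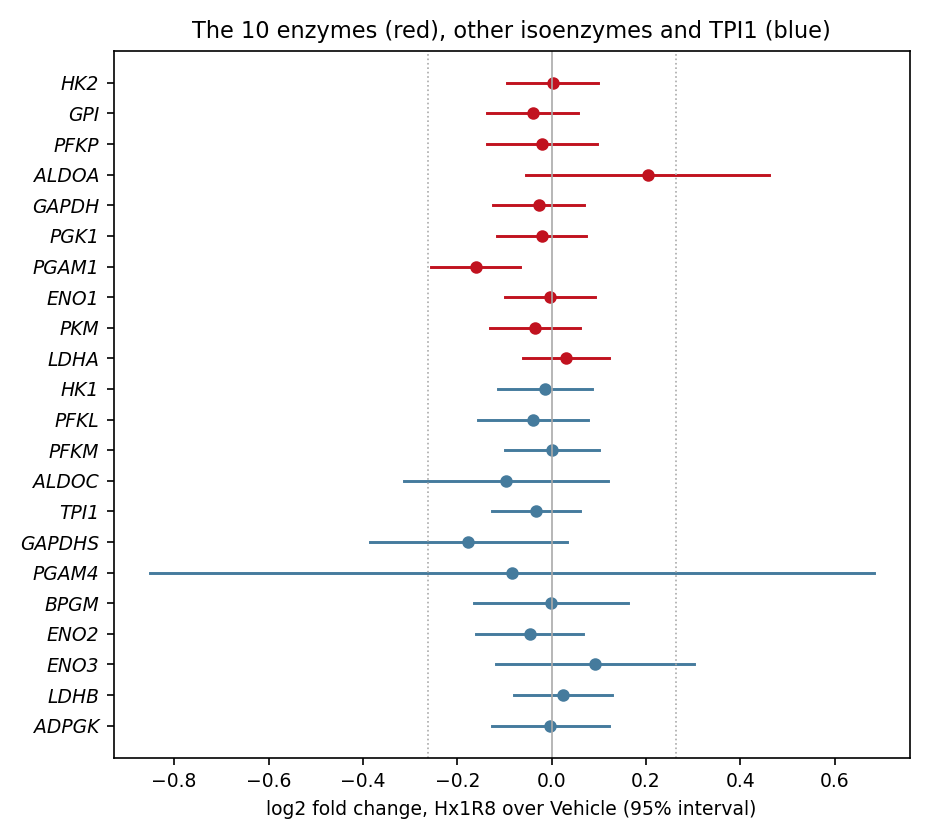
Log2 fold change of Hx1R8 over Vehicle (x axis) with its 95% interval for the 10 enzymes (red) and the 12 other tested genes, isoenzymes and TPI1 (blue), and dotted lines at 1.2-fold. Among the 10, the interval of PGAM1 lies below 0 and that of ALDOA crosses the 1.2-fold line.

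In both groups the transcripts of hexokinase and phosphofructokinase were mixtures of isoenzymes, whereas ENO1 and LDHA made up most of theirs. Of the hexokinase transcripts per length, HK1 made up 52.3% ± 0.329 and HK2 47.7% ± 0.329 in Vehicle, and 52.0% ± 0.198 and 47.9% ± 0.241 in Hx1R8 (SD, n = 2 each). Of phosphofructokinase, PFKM, the muscle form, made up 42.6% ± 0.476, PFKL, the liver form, 30.8% ± 0.602 and PFKP 26.6% ± 0.126 in Vehicle (SD, n = 2). In Hx1R8 these shares were 43.1% ± 0.585, 30.3% ± 1.12 and 26.5% ± 0.532 (SD, n = 2). ENO1 made up 93.8% ± 0.043 of enolase in Vehicle and 93.8% ± 0.124 in Hx1R8, with ENO2 at 5.14% ± 0.075 and 4.99% ± 0.050 (SD, n = 2 each). LDHA made up 79.1% ± 0.849 of lactate dehydrogenase in Vehicle and 79.2% ± 0.546 in Hx1R8 (SD, n = 2 each). The means of HK1, PFKM, ENO1 and LDHA differed between the groups by less than 1 percentage point. PGAM2 had 0 reads in all libraries, but all of its exon bases in the table belong also to DBNL, so that value does not show its absence. Of aldolase, ALDOA as listed made up 18.6% ± 1.47 in Vehicle and 21.8% ± 0.987 in Hx1R8, and ALDOC 80.8% ± 1.69 and 77.4% ± 1.03 (SD, n = 2 each). The groups did not overlap in either, but both shares carry the uncertainty of the ALDOA row, and aldolase is left out of the plot of shares.

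**Figure D4:**
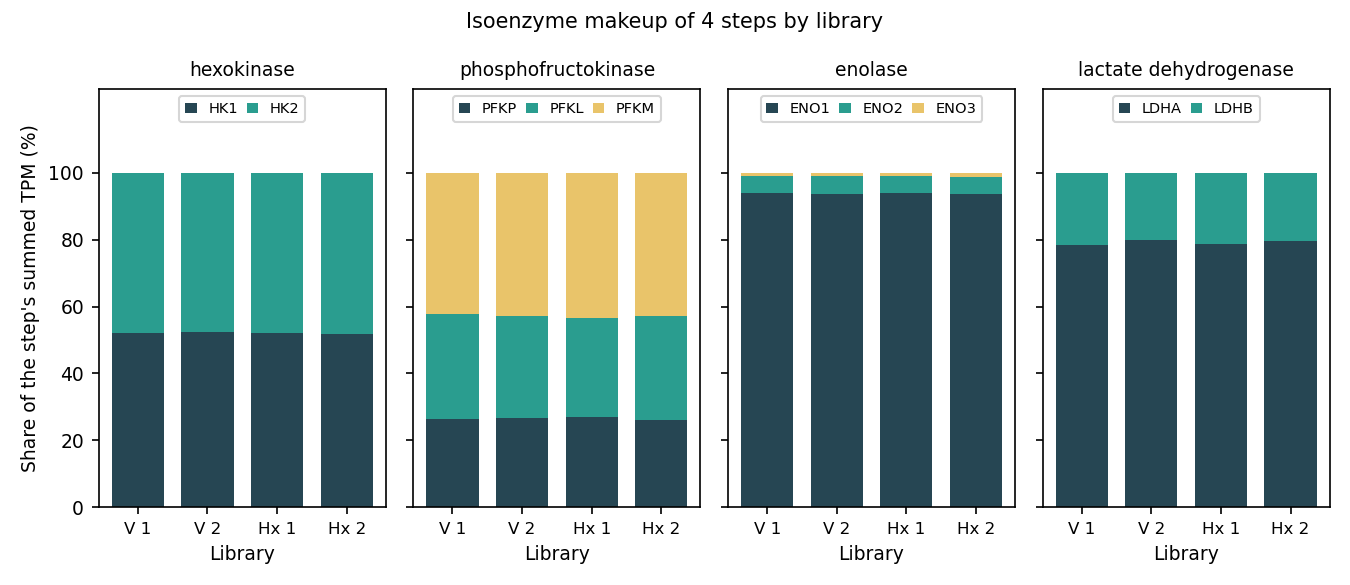
Share of the summed TPM of each step (y axis, %) held by each isoenzyme in each library (V, Vehicle; Hx, Hx1R8; replicates 1 and 2), with isoenzymes under 0.5% left out. Hexokinase and phosphofructokinase are mixtures, whereas ENO1 makes up about 93.8% of enolase and LDHA about 79% of lactate dehydrogenase in both groups.

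Transport and control genes around the pathway held no gene past the threshold, against 0.0207% of all tested genes. Of 14 tested transporters of glucose and lactate, 0 were called, 2 (14.3%) had an unadjusted p under 0.05, against 3.39% of all tested genes, and the median log2 fold change was 0.02. SLC2A1, the main glucose transporter of many tumours, was at 314 ± 9.46 CPM in Vehicle against 311 ± 8.65 CPM in Hx1R8 (SD, n = 2 each). BSG, the chaperone of the lactate carriers, was at 686 ± 32.7 and 684 ± 11.0 CPM. The 2 genes with unadjusted p under 0.05 were scarce: SLC2A13, a myo-inositol carrier, was at 8.96 ± 1.14 and 11.4 ± 0.835 CPM (log2 0.34, SE 0.12), and SLC2A12 at 4.40 ± 0.411 and 5.90 ± 0.039 CPM (log2 0.42, SE 0.16). In both the Hx1R8 libraries were above the Vehicle libraries, and 51.1% of the exon bases of SLC2A12 belong also to the opposite-strand gene TBPL1. Of 10 glycolysis regulators 0 were called. PDK1, which restrains pyruvate dehydrogenase, was at 15.9 ± 3.81 and 18.7 ± 1.10 CPM (log2 0.23, SE 0.11, unadjusted p = 0.038) with overlapping groups. TIGAR, which lowers the allosteric activator of phosphofructokinase, was at -0.09 (SE 0.08), and PFKFB3, which makes it, at -0.04 (SE 0.06).

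The routes that branch from glycolysis had 0 genes past the threshold as well. With 0.0207% of all tested genes called, 0 is the usual count for lists this short. For all 7 tested pentose phosphate genes the interval stayed within 1.2-fold, with TKT, a transketolase, at -0.04 (SE 0.05). Such intervals were found for 57.6% of all tested genes and for 99.5% of those whose mean log2 CPM was 6 or more. The 5 serine branch genes, which draw on phosphoglycerate just before the PGAM1 step, were bounded in the same way, with PHGDH, the entry enzyme, at 429 ± 31.2 CPM in Vehicle against 420 ± 1.04 CPM in Hx1R8 (SD, n = 2 each) and SHMT2 at -0.05 (SE 0.05). Among 8 genes of pyruvate entry into mitochondria, PC, pyruvate carboxylase, was at -0.15 (SE 0.10) and PDHA1, a pyruvate dehydrogenase subunit, at -0.0019 (SE 0.05). Among 10 tested genes of gluconeogenesis and glycogen, PGM1 was at 0.16 (SE 0.12) and G6PC3 at -0.02 (SE 0.06). BPGM, which sits beside PGAM1 at the same metabolites, was at 24.3 ± 1.14 CPM in Vehicle against 24.2 ± 0.606 CPM in Hx1R8 (SD, n = 2 each).

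HIF and MYC transcripts and other HIF targets likewise had 0 genes past the threshold, of 8 and 17 tested, against 0.0207% of all tested genes. HIF1A was at 85.7 ± 0.228 CPM in Vehicle against 89.6 ± 3.29 CPM in Hx1R8 (SD, n = 2 each), with a log2 fold change of 0.06 (SE 0.05). MYC was at 172 ± 3.77 and 173 ± 1.55 CPM, and VHL, which marks HIF for degradation, at -0.06 (SE 0.05). Of the HIF targets, DDIT4 was at -0.14 (SE 0.09), KDM3A at -0.05 (SE 0.05) and CA12 at -0.49 (SE 0.39). PPFIA4, which had the smallest unadjusted p of these targets (0.080), was at 0.34 (SE 0.19) and INSIG2 at 0.10 (SE 0.09), both with the Hx1R8 libraries above the Vehicle libraries. In 2 other targets, DDIT4 among them, both Hx1R8 libraries were below both Vehicle libraries. Of all tested genes, 14.7% were above in this way and 15.2% below. Of the 17 tested targets 7 were above 0 and 10 below, with a median of -0.0078. ACGTG is a form of the HIF core site, and MYC recognises CACGTG, which contains it. The GCGTG form is not reported here, so a window without ACGTG may still hold a HIF core. Among the 10 enzymes, 7 had ACGTG on either strand in at least 1 RefSeq start-site window of 300 bases (GRCh38.p14). Of their 17 windows 10 held it, against 21.4% of all 35116 windows. Some enzymes have several windows, and the share of all genes with ACGTG in at least 1 window was not computed. LDHA is shown as the window with the most matches counted over both strands (5 at 3 places, a CACGTG counting on each strand), and PGAM1 for comparison. A PGK1 window also had matches at 3 places, 3 in all. The capitals mark ACGTG or its reverse complement, and the LDHA window is chr11:18394313-18394612 and that of PGAM1 chr10:97427568-97427867, both on the plus strand.
LDHA: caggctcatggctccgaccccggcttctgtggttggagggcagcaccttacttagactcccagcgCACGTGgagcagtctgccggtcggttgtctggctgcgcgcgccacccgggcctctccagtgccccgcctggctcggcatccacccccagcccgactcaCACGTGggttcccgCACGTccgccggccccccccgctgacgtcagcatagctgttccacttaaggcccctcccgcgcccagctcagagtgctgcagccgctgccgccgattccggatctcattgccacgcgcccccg
PGAM1: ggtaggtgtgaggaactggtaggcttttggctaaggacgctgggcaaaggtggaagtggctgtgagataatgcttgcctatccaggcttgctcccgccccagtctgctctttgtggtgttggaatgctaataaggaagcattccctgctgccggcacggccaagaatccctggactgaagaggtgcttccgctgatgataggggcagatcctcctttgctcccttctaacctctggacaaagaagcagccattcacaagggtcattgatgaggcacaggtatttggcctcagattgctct
The PGAM1 window held no match. Its start site lies 1627 bases downstream of the first exon base that the deposited table lists for PGAM1, so sequence around that earlier start is not in the window. A match is a description of letters and not of binding.

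**Figure D5:**
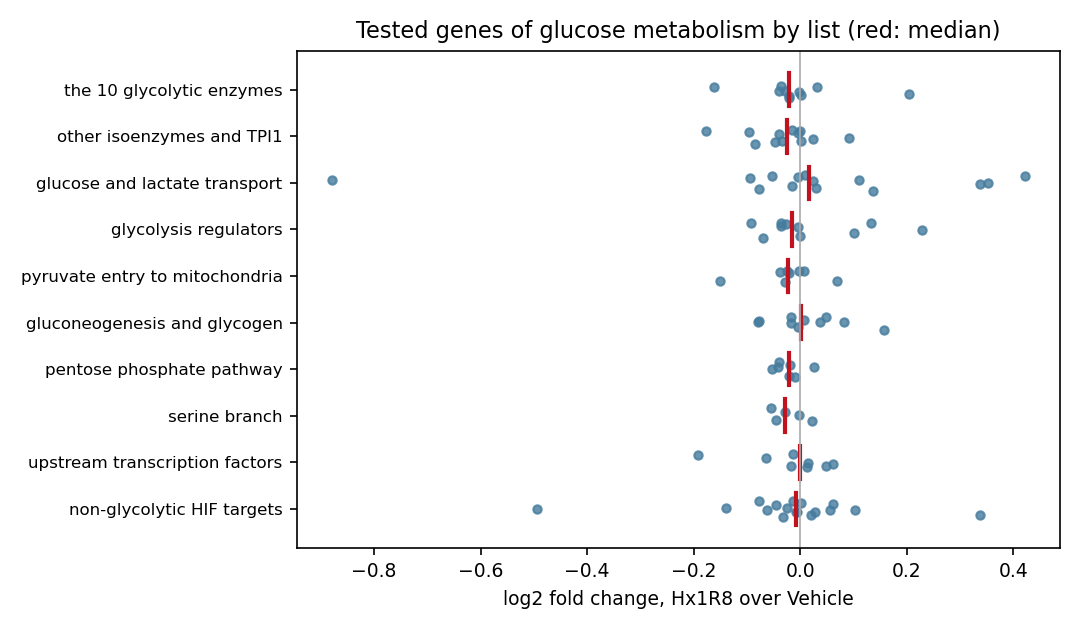
Log2 fold change of Hx1R8 over Vehicle (x axis) for each tested gene of the glucose metabolism lists (y axis), with the list median in red. All 10 medians lie close to 0, and the widest values belong to scarce genes such as CA12 and SLC2A4.

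By the size of its change in each library, PGAM1 was most like ALKBH3, FN3KRP and RAP1A. Among 6343 genes outside the lists whose mean log2 CPM was at least 5, these had the smallest root mean square distance from PGAM1 in centred log2 CPM over the 4 libraries, at 0.0067, 0.0068 and 0.011. The median distance was 0.095. ALKBH3, a demethylase of nucleic acids, was at 34.2 and 35.2 CPM in Vehicle against 30.0 and 32.0 CPM in Hx1R8. With 4 libraries such likeness is a description only, and none of these genes passed the threshold (edgeR adjusted p = 0.9999 for each).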

How the data were processed

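The authors deposited raw read counts per gene with 1 column per library. STAR 2.7.9 and hg38 are named as aligner and build, per the submitters' processing notes. For the counting tool, annotation and strand setting: not given in the sources used here. Exon coordinates and merged exon length per gene stand beside the counts, per the file headers. A broken entry on 2 lines with 0 reads was left out. The members, gene lists and tests were chosen with earlier results of these data known. The test was that of edgeR 4.0.16, run in R 4.3.3 (quasi-likelihood, TMM factors, filterByExpr, group as the only term, two-sided, Benjamini-Hochberg adjustment over all 14482 tested genes, threshold 0.05), after a check on simulated counts. Intervals are 95% intervals of the fitted model, with 2 residual degrees of freedom among libraries and the spread of all genes as prior. Total counts were 17483349 and 17352323 in Vehicle and 17259403 and 20920857 in Hx1R8, so a floor of 3 counts is 0.143 to 0.174 CPM, for counting error only. Every pair of libraries differed by more than sampling noise, at a chi-square per gene of 1.48 to 2.94. Of 153 list entries 152 matched a symbol. Besides the 10 enzymes, the rule for named genes took from each list the 4 tested genes of smallest unadjusted p and the 2 of highest TPM, of which a part is named and some are not reported here; HK1, PFKL, PFKM, PGAM2, BPGM, KRT14, KRT17, DSG3, PTPRC, PECAM1 and SFTPC were added afterwards. Alternatives were other factors and filters, DESeq2 1.42.0, limma-voom (limma 3.58.1), a replicate block and leaving out each library.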

Additional observations from a re-analysis of the deposited data

How the results depend on the processing

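Of 120 recomputed values of the 10 enzymes under 12 alternatives, 10 changed sign, 1 of them with all libraries kept (ENO1 without the low-count filter, 0.0017). None of the values that changed sign was called. With 1 library left out the lone sample of its group is assumed to vary like the other group. The number of genes called was then 6 to 79, and the number of enzymes called 0 to 2. PGAM1 ran from -0.20 to -0.12, HK2 from -0.038 to 0.045, GPI from -0.11 to 0.033, PFKP from -0.057 to 0.017, GAPDH from -0.087 to 0.036, PGK1 from -0.073 to 0.034, ENO1 from -0.058 to 0.057 and PKM from -0.091 to 0.024. The cause was not tested. ALDOA (0.15 to 0.25) and LDHA (0.02 to 0.04) kept their sign. In both, as in PGAM1, the groups did not overlap, so leaving out 1 library could hardly reverse the sign. Other factors, filters, DESeq2 and limma-voom left 2 or 3 genes and 0 enzymes called. A replicate block left 3 genes called, 0 enzymes, and PGAM1 at -0.16 (edgeR adjusted p = 0.9995). The labels give replicates of the groups equal numbers and no other link, and the deviations of libraries with equal numbers had a correlation of 0.096 over genes. At this depth ALDOA, with 129 to 187 reads, is the enzyme with the least precise fold.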
